A study of Mus musculus with 14 samples.

Results

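Acetylation of histone H3 at lysine 9 (H3K9ac), a mark of active promoters, is described here at 10 mouse genes that carry growth factor and interleukin 6 type cytokine signals in regenerating liver: Egfr, Erbb3, Met, Gab1, Il6ra, Il6st, Lifr, Stat3, Socs3 and Socs2. A gene's window was its RefSeq span on mm10 extended by 10 kb on each side, and its values came from the called peaks that overlap that window. All 10 genes had a peak in each of 12 libraries, and they are 10 of 12419 such windows among 21900 protein-coding genes. The windows held 799 peaks over the 12 libraries (52 to 83 per library), which merged into 115 of 57945 regions.

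The libraries were made by chromatin immunoprecipitation and sequencing (ChIP-seq) from whole liver of male C57BL6/J mice aged 2 to 3 months, taken 12 h after partial hepatectomy, with no altered gene named in the labels. The title d22 was on 6 libraries and pbs on 6, and the study asked what delaying the fall in blood glucose after the operation does to H3K9ac. The title and the treatment label of a library contradict each other: those titled d22 carry the vehicle label (PBS at reduced strength), and those titled pbs carry that of dextrose (22.5%). The pooled inputs of both titles, d22 included, carry the dextrose label. Groups are therefore named by title, every change is d22 over pbs, and no library is said to come from a dextrose or a vehicle mouse. The labels do not say that the libraries are separate animals, so p-values measure the spread between these libraries, which may be technical. Each title group has 1 pooled input of its own, against which all its peaks were called, so input and group cannot be told apart in any measure that rests on the call.

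The genes form a pair of connected routes. Egfr, Erbb3 and Met are receptors of epidermal growth factor type ligands, neuregulins and hepatocyte growth factor, and Gab1 is a docking protein that these receptors use to reach the Ras and PI3-kinase routes. Interleukin 6 binds Il6ra, which then engages Il6st (gp130), the signalling chain that Lifr also pairs with, and the Janus kinases bound to it phosphorylate Stat3. Stat3 switches on Socs3, which blocks the same receptor complex, while Socs2 restrains the growth hormone receptor. After liver resection the interleukin 6 route is known for priming hepatocytes and for the acute phase response, and Egfr and Met for driving hepatocytes through the cell cycle.

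The promoters of 4 of these genes are shown because H3K9ac results below turn on them: Egfr and Socs3 carried the most tags, Il6st the smallest p for called length and Gab1 the largest change in fold enrichment. The 250 bases upstream of the annotated start are given 5′ to 3′ on the gene's strand (RefSeq, GRCm38.p6, the coordinates of mm10). Capitals mark the STAT motif TTCNNNGAA and the GC box GGGCGG, searched on both strands. The intervals are chr11:16751953-16752202 (plus strand) for Egfr, chr8:80880520-80880769 (minus strand) for Gab1, chr13:112463820-112464069 (plus strand) for Il6st and chr11:117969367-117969616 (minus strand) for Socs3.
Egfr promoter: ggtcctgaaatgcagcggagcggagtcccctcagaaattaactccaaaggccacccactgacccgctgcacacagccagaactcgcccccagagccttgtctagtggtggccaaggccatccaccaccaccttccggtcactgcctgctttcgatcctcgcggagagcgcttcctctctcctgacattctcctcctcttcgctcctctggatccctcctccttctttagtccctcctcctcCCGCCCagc
Gab1 promoter: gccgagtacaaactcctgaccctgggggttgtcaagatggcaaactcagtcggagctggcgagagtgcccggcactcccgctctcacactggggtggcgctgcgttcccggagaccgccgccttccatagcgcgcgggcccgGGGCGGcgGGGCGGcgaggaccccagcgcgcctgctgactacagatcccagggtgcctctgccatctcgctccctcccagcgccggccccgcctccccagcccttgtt
Il6st promoter: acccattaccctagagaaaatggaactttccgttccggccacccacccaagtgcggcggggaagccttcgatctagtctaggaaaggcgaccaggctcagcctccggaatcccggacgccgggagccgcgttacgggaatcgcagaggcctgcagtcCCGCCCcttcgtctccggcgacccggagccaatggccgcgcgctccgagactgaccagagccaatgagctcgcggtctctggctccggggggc
Socs3 promoter: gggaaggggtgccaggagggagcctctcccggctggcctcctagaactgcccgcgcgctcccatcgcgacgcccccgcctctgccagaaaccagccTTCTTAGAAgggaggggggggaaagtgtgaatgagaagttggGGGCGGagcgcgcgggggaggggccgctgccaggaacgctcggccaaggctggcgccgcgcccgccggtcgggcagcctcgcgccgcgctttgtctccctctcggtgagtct

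The Socs3 promoter holds a STAT motif, TTCTTAGAA, at position -154 from the start. The table of promoters had entries for 8 of the 10 genes and none for Erbb3 and Socs2. A gene was counted if the promoter of any of its annotated starts held the motif, whereas the percentages are of single promoters. The 2 rates therefore differ in unit. A STAT motif was found for 2 of the 8 (Socs3, and Gab1 only upstream of another annotated start than the one shown), against 7.02% of 32851 promoters. A GC box was found for 7 of the 8, against 32.7% of all promoters, CCAAT for 3 (Il6st, Lifr and Stat3), against 33.8%, TGANTCA for 1 (Met), against 6.75%, and CACGTG for 2 (Met and Il6ra), against 6.02%. The 8 promoters were rich in G and C, at 60.8% in Egfr and Stat3 up to 82.4% in Lifr, against a median of 52.4% over all promoters. They held 11 CpG dinucleotides in Egfr up to 43 in Lifr, against a median of 6. These matches describe the letters of the windows and are not evidence of binding.

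How far the called peaks at the start reached into the gene differed widely between the genes, in libraries of both titles. Reach was measured to the outermost end of the called peaks of the start region in each library. Where a gene had several annotated starts, distances were taken from the first one listed in the reference. These were separate peaks with uncalled gaps, 2 to 6 per library at Egfr and 2 to 5 at Socs3. At Egfr the reach was a median of 11.2 kb into the gene over the 12 libraries (7.32 to 12.5 kb). The merged region there, chr11:16750712-16764748, was 14037 bp wide. At Socs3 the reach was 8.28 kb downstream (7.11 to 8.70 kb), past the far end of a gene of 4258 bp, in a region of 10362 bp (chr11:117960668-117971029). By mean called length, 99.2% of the 12372 regions called in all 12 libraries were shorter than that of Egfr and 98.9% shorter than that of Socs3.

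At the other starts the called peaks reached less far. The median downstream reach was 7.26 kb at Il6ra, 5.90 kb at Il6st, 4.76 kb at Stat3, 3.57 kb at Lifr, 3.09 kb at Met and 2.00 kb at Gab1. Upstream of the start the median reach was only 0.70 kb (Met) to 1.41 kb (Egfr), so the called peaks at all 8 starts reached mainly downstream. The start base itself was inside a called peak in all 12 libraries at Egfr, Gab1, Il6ra, Il6st and Lifr, in 11 at Met and Stat3, and in 8 at Socs3 (4 d22 and 4 pbs).

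**Figure D1:**
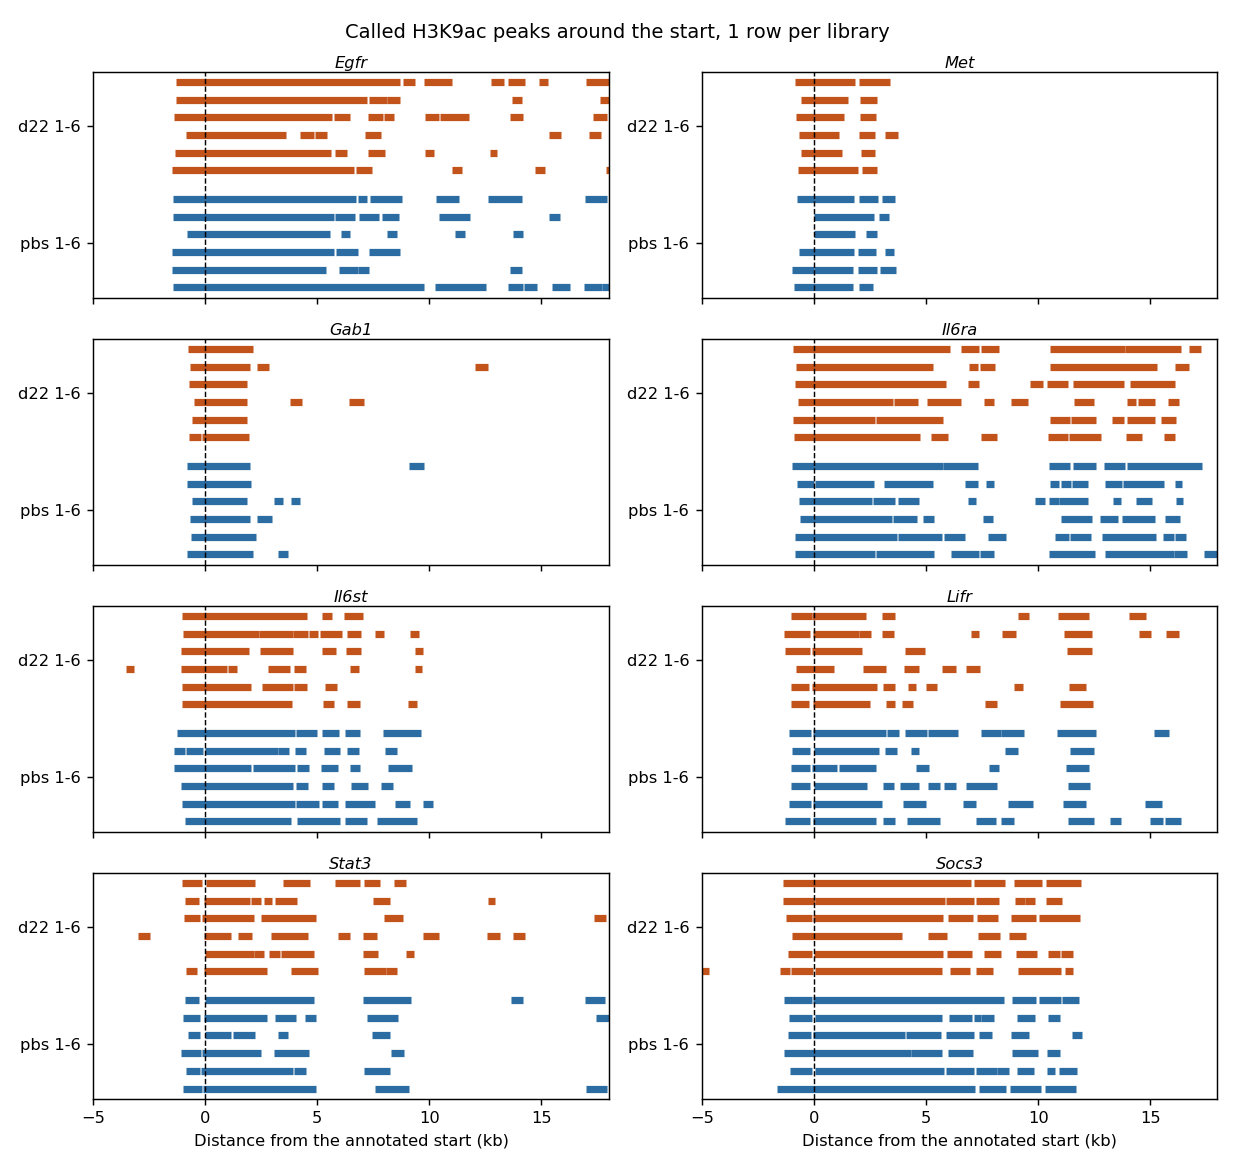
Called H3K9ac peaks by distance in kb from the annotated start (dashed line; positive values lie downstream of the start) for the 8 genes with an annotated start, 1 row per library, d22 above pbs. Peaks beyond the plotted range are not drawn. The start regions of Egfr and Socs3 reach furthest and that of Gab1 least far, in both title groups.

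Several of these windows hold starts of other genes, which the tag counts include. The window of Erbb3 contains the start of Pa2g4, in a region of its own (chr10:128563586-128568092), and Erbb3 itself has a region at its upper end (chr10:128584643-128590893). The Socs2 region (chr10:95413601-95418135) also covers the starts of the long noncoding RNAs Gm33230 and 5730420D15Rik, and the Stat3 region (chr11:100934510-100940607) covers that of Gm46295. The reference used here gives no strand for Erbb3 and Socs2, so their regions are called gene-end regions. At the start or gene-end region lay 94.4% of all window tags in Socs2, 92.1% in Socs3 and 90.0% in Il6st, but only 56.6% in Erbb3 and 56.0% in Lifr. The start used for Lifr, chr15:7129572, lies inside its RefSeq span, which begins at 7090610. Lifr has a further annotated start, with a region of its own (chr15:7140403-7142139) called in 11 of 12 libraries, all except d22 4.

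Levels were compared between genes as tags per kb of called length, scaled to the summed tags of tested regions, at the start or gene-end region. Socs3 was highest at 50.3 ± 4.50 (SD over the 12 libraries), followed by Egfr (44.2 ± 6.40), Stat3 (42.8 ± 9.17), Gab1 (40.5 ± 3.35) and Erbb3 (40.1 ± 5.65). Il6st (34.7 ± 4.27), Il6ra (34.4 ± 3.39), Met (32.8 ± 5.08) and Lifr (31.2 ± 2.81) came next, and Socs2 was lowest at 26.8 ± 4.85. No neighbours in this order were separated by more than the larger of their SDs. The feedback inhibitors thus stood at opposite ends: 94.8% of tested regions had a lower level than Socs3 and 33.5% a lower one than Socs2.

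Tag counts in the windows were compared as CPM (counts scaled by TMM to the tags in all tested windows). None of the 10 genes passed the test: 0 of 10 were called by edgeR's quasi-likelihood test at a Benjamini-Hochberg adjusted p under 0.05, against 0.797% of all 12419 windows. At an unadjusted p under 0.05 there were 2 (Il6st and Lifr), against 10.8% of all windows. DESeq2 called 0 of 10, against 2.2% of all windows, with 3 at an unadjusted p under 0.05, against 11.5%. Changes were positive for 5 genes and negative for 5, with a median of -0.01 on the log2 scale against 0.00 over all windows. TMM sets the middle of all windows near 0, so a shift shared by all windows cannot be seen on this scale. With library totals as the scaling, the median over all windows was -0.20. In all 10 genes the d22 and pbs libraries overlapped, where 1.29% of all windows had groups that did not. Over the 10 genes the 95% intervals lay between 0.717-fold and 1.46-fold.

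**Figure D2:**
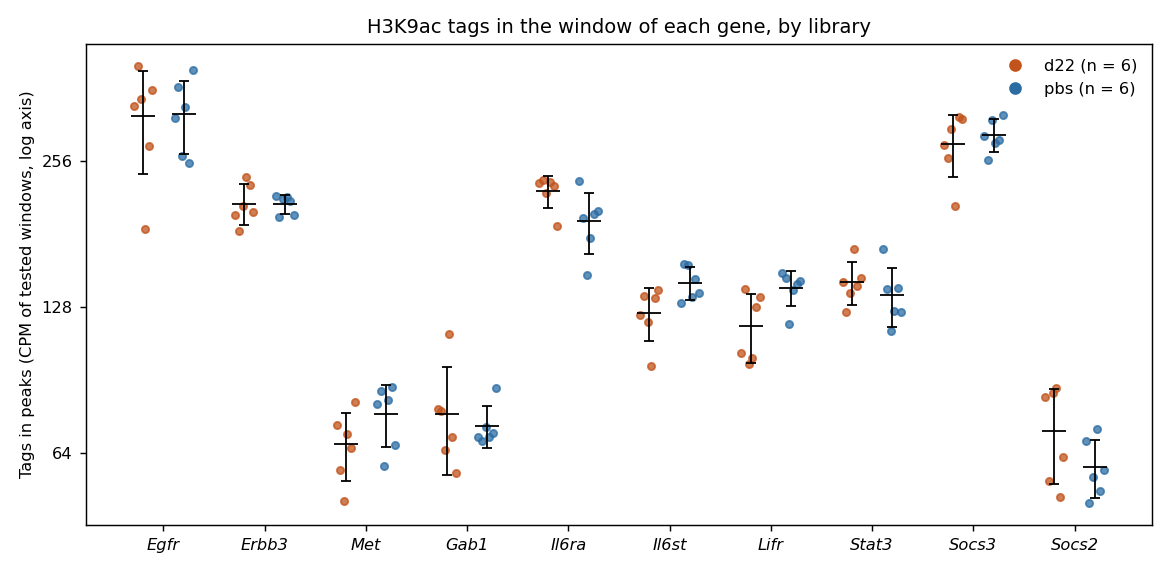
Tags in the peaks of each gene's window, in CPM on a log axis, for 6 d22 (left, orange) and 6 pbs libraries (right, blue); bars are the mean and SD. The groups overlap at all 10 genes, and the d22 values of Lifr and Il6st sit toward the low side of those of pbs.

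Among the growth factor receptors, Egfr had the most tags. Its window held 186 (lowest), 339 (median) and 403 (highest) CPM in d22, against 254, 323 and 395 CPM in pbs. The lowest value came from d22 4, the shallowest library (6343891 tags), while pbs 3, with 6385610 tags, was at 262 CPM. The other 5 d22 libraries were all at 276 CPM or more. The change was -0.01 ± 0.16 (log2, SE; edgeR adjusted p = 0.987), and 0.10 without d22 4. At the Egfr start region alone the change was 0.07 ± 0.11 (edgeR adjusted p = 0.893).

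Met, the hepatocyte growth factor receptor, had 51.1, 68.0 and 81.5 CPM in d22 (lowest, median and highest), against 60.1, 81.5 and 87.5 CPM in pbs. The groups overlapped over most of their range. The change was -0.21 ± 0.12 (log2, SE; edgeR adjusted p = 0.560), and at the start region (chr6, 85.9% of the window's tags) -0.14 ± 0.11 (edgeR adjusted p = 0.721).

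Erbb3, a receptor with little kinase activity of its own that signals through its partners, had the steadiest window, with a coefficient of variation of 7.11% over the 12 libraries against a median of 15.3% over all windows. It held 184, 204 and 238 CPM in d22 (lowest, median and highest), against 196, 213 and 218 CPM in pbs, with a change of 0.00 ± 0.07 (log2, SE; edgeR adjusted p = 0.997). The 2 regions of its window had changes of opposite sign, and neither passed. The Erbb3 gene-end region had 188 ± 19.2 CPM in d22 and 210 ± 12.6 CPM in pbs (SD, n = 6 each), a change of -0.16 ± 0.08 (edgeR adjusted p = 0.499), and the Pa2g4 region 160 ± 27.1 CPM in d22 and 143 ± 7.19 CPM in pbs, a change of 0.15 ± 0.10 (edgeR adjusted p = 0.639).

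Gab1, the adapter, had 58.2, 73.7 and 113 CPM in d22 (lowest, median and highest), against 67.7, 69.8 and 87.1 CPM in pbs. The highest value belonged to d22 4, which also had the longest called length there, 7465 bp, and the groups overlapped. The change was 0.07 ± 0.13 (log2, SE; edgeR adjusted p = 0.890) and -0.06 without d22 4. At the Gab1 start region, which held 86.9% of the window's tags, there were 107 ± 6.18 CPM in d22 and 111 ± 12.9 CPM in pbs (SD, n = 6 each), a change of -0.05 ± 0.09 (edgeR adjusted p = 0.906).

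The cytokine receptor chains gave the smallest p-values of the 10 genes, in different directions. Lifr had 97.7, 116 and 139 CPM in d22 (lowest, median and highest), against 118, 144 and 150 CPM in pbs. Libraries d22 1, d22 3 and d22 4 were below every pbs library and the other 3 were inside the pbs range. The change was -0.26 ± 0.10 (log2, SE; 95% interval -0.48 to -0.04), with an edgeR adjusted p of 0.347. At its start region (chr15:7128229-7133352) the change was -0.17 ± 0.12 (edgeR adjusted p = 0.652).

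Il6st, the shared signalling chain, had 97.0, 129 and 139 CPM in d22 (lowest, median and highest), against 131, 142 and 157 CPM in pbs. Libraries d22 1, d22 3 and d22 4 were again the ones below all of pbs. The change was -0.20 ± 0.09 (log2, SE; 95% interval -0.39 to -0.01), with an edgeR adjusted p of 0.430, and -0.14 without d22 4. Il6st and Lifr form the leukaemia inhibitory factor receptor together.

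Il6ra, the chain that binds interleukin 6, had 189, 229 and 234 CPM in d22 (lowest, median and highest), against 149, 198 and 233 CPM in pbs. All d22 libraries except d22 6 lay above 5 of the 6 pbs libraries, while pbs 1 was inside the d22 range. The change was 0.20 ± 0.09 (log2, SE; edgeR adjusted p = 0.466).

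Stat3, the transcription factor of the route, had 125, 143 and 169 CPM in d22 (lowest, median and highest), against 115, 133 and 169 CPM in pbs. The ranges nearly coincided, and the change was 0.08 ± 0.10 (log2, SE; edgeR adjusted p = 0.823). Its window also reaches the end of Stat5a, where a region was called in 5 libraries (3 d22 and 2 pbs).

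Socs3, the inhibitor that Stat3 induces, had 207, 288 and 316 CPM in d22 (lowest, median and highest), against 257, 286 and 319 CPM in pbs. Library d22 4 was below all others, and the remaining libraries of both titles were mixed. The change was -0.06 ± 0.10 (log2, SE; edgeR adjusted p = 0.881).

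Socs2 had 52.1, 73.2 and 87.1 CPM in d22 (lowest, median and highest), against 50.5, 58.1 and 71.7 CPM in pbs. Libraries d22 1, d22 3 and d22 4 were above every pbs library and the other 3 were inside the pbs range. The change of 0.24 ± 0.14 was the largest positive one of the 10 genes (log2, SE; edgeR adjusted p = 0.567). It varied most of the 10 over the 12 libraries, with a coefficient of variation of 20.4%.

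A tag count rises with the length that was called, so length and tags per kb were tested apart. By limma on log2 called length, 0 of 10 genes passed, with 0.0% of all windows called, and 2 had an unadjusted p under 0.05, against 5.22% of all windows. Il6st had 5064, 6317 and 8370 bp called in d22 (lowest, median and highest), against 7321, 8622 and 9447 bp in pbs, with only d22 2 of the d22 libraries inside the pbs range. The change in length at Il6st was -0.41 ± 0.13 (log2, SE; limma adjusted p = 0.693). Lifr had 6956, 8350 and 11026 bp in d22, against 8243, 10579 and 14443 bp in pbs, a change of -0.35 ± 0.15 (limma adjusted p = 0.899).

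In tags per kb, both genes had a positive change instead, 0.21 ± 0.14 at Il6st and 0.09 ± 0.14 at Lifr (log2, SE; limma adjusted p = 0.999 for each, not called). By limma 0 of 10 genes passed on this scale, with 0.0% of all windows called and 0 at an unadjusted p under 0.05, against 2.44% of all windows. The groups overlapped at all 10 genes in length and in tags per kb, where 0.234% and 0.0242% of all windows had groups that did not. Changes in tags per kb ran from -0.05 (Socs3) to 0.24 (Socs2), 9 were positive, and their median was 0.11 against 0.06 over all windows. For Socs2 the change in tags per kb matched that in tags, with a change in length of 0.00 ± 0.13. For Il6ra it was 0.20 ± 0.13, with a change in length of 0.02 ± 0.16.

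**Figure D3:**
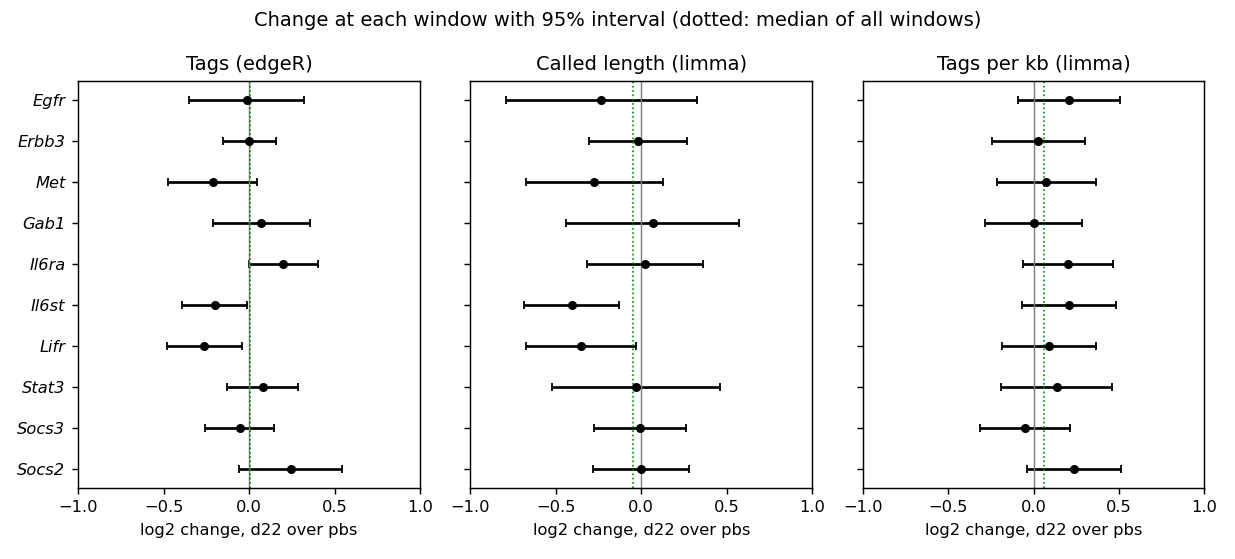
Log2 change of d22 over pbs at each gene's window with its 95% interval, for tags (edgeR), called length (limma) and tags per kb of called length (limma); the dotted line is the median of all tested windows. The intervals of Il6st and Lifr leave out 0 for tags and for length and include it for tags per kb.

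Of the 115 regions in these windows, 15 were called in all 12 libraries and could be tested for tags. By edgeR 0 of the 15 passed, against 1.01% of 12372 regions, and 1 had an unadjusted p under 0.05, the start region of Il6ra, against 10.9% of all regions. DESeq2 called 0 of the 15, against 2.21% of all regions, with 2 at an unadjusted p under 0.05, against 11.3%. The Il6ra start region had 225, 253 and 266 CPM in d22 (lowest, median and highest), against 184, 221 and 238 CPM in pbs, with d22 6 alone of the d22 libraries inside the pbs range. The change there was 0.21 ± 0.08 (log2, SE; edgeR adjusted p = 0.315). Over the 15 regions changes ran from -0.25 (a region 7.03 kb into Stat3) to 0.32 (a region 8.71 kb downstream of the Socs3 start).

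Further regions were called in some libraries only. There were 4 called in 11 libraries, 46 in 2 to 10 and 50 of the 115 in a single library. Over all 57945 regions, 27256 were called in a single library and 12372 in all 12. Of those 50, 24 were called only in d22 4, which listed 44585 peaks in all, against 26352 to 30780 in the other 11 libraries. The share of d22 4 among all 27256 single-library regions was not counted, so the 24 cannot be set against it. Of the 46, 0 had a p under 0.05 for occupancy between the titles by Fisher's exact test, before or after adjustment. The smallest p among them was 0.242, and of all 16853 regions tested this way 0.0% passed after adjustment and 0.587% before it. With 6 libraries per title, a region called in only a few or in nearly all libraries could not reach 0.05, whatever its split. For such regions the test cannot tell whether occupancy differed. Egfr, which has the longest span of the 10 genes (161705 bp), had the most regions, 32, of which 14 were called in a single library. A region 7.24 kb or more upstream of its start, at the start of the long noncoding RNA Gm39583, was called in all libraries except d22 4.

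The fold enrichment that the authors' caller gives each peak over its local background was the measure on which genes passed. For the highest peak of each window, 4 of 10 genes were lower in d22 by limma (Gab1, Lifr, Erbb3 and Met), against 21.9% of all windows called lower and 23.1% called in either direction, and 0 of 10 were higher. In all 10 genes the d22 and pbs libraries overlapped, where 6.13% of all windows had groups that did not. The median change was -0.37 for the 10 genes and -0.31 for all windows. Tags were 48 bp long in 3 pbs libraries and 49 bp in all others, and over the 49 bp libraries alone only Gab1 passed (-1.23, limma adjusted p = 0.00721), where 4.47% of all windows were called lower. Title group and pooled input cannot be told apart here.

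Gab1 had the largest change in this measure. The highest peak of its window had a fold enrichment of 11.3, 13.8 and 35.5 in d22 (lowest, median and highest), against 30.9, 39.1 and 53.5 in pbs. In 5 of the 6 d22 libraries the value was below every pbs library, at 15.3 or less, and d22 2 was inside the pbs range. The change was -1.38 ± 0.22 (log2, SE; limma adjusted p = 3.61e-06), and 0.145% of the 12419 windows had a lower one. After the median of all windows was taken out it was -1.07 (limma adjusted p = 0.000421), where 10.1% of windows passed.

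In d22 4 and d22 5 the highest peak lay deeper inside Gab1, so the main peak over the start was also compared by itself. In d22 that peak had 113 to 274 raw tags and a fold enrichment of 10.9 to 35.5, and in pbs it had 146 to 367 raw tags and a fold enrichment of 30.9 to 53.5. At this start region the change in fold enrichment was -1.40 ± 0.23 (log2, SE; limma adjusted p = 1.5e-05). Its summit lay 162 to 505 bp inside the gene in the 5 d22 libraries with low values and 315 to 351 bp inside it in 5 pbs libraries. The summits of d22 2, at 946 bp, and of pbs 2, at 1328 bp, lay further in, and these libraries had the highest fold enrichment of d22 and the lowest of pbs. Tags per kb at the Gab1 start region were 41.3 ± 2.56 in d22, against 39.7 ± 4.08 in pbs (SD, n = 6 each), a change of 0.06 ± 0.11 (log2, SE; limma adjusted p = 0.889), where 0.0404% of all regions passed.

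The other genes that passed were lower by less. Lifr had a fold enrichment of 23.8, 28.6 and 45.8 in d22 (lowest, median and highest), against 38.4, 45.2 and 63.5 in pbs, a change of -0.61 ± 0.19 (log2, SE; limma adjusted p = 0.0136). Met had 26.9, 36.0 and 47.3 in d22, against 41.2, 52.6 and 67.5 in pbs, a change of -0.52 ± 0.18 (limma adjusted p = 0.0272). In both genes the groups overlapped. Relative to the median of all windows the changes were -0.30 for Lifr and -0.21 for Met, and neither passed. Lifr also lost its call without pbs 6 (limma adjusted p = 0.0522), where 1929 of all windows were called, against 2869 with all libraries. Met lost its call on leaving out d22 1, d22 3 or d22 4, and likewise on leaving out pbs 1, pbs 3 or pbs 5 (highest limma adjusted p = 0.0891, without pbs 1). In those fits 1741 (without pbs 3) to 3441 (without d22 4) of all windows were called.

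Erbb3 had a fold enrichment of 35.9, 43.7 and 54.0 in d22 (lowest, median and highest), against 50.7, 62.8 and 81.3 in pbs, a change of -0.53 ± 0.17 (log2, SE; limma adjusted p = 0.0188). In all libraries except d22 6 and pbs 4 that highest peak lay at the start of Pa2g4 and not at Erbb3. At the Erbb3 gene-end region itself the values were 34.2, 39.1 and 42.8 in d22, against 49.3, 56.4 and 63.7 in pbs. There the groups did not overlap, as in 6.2% of all regions, and the change was -0.54 ± 0.17 (limma adjusted p = 0.0188), where 20.2% of all regions passed and 18.9% were lower. Relative to the median of all regions it was -0.24 and did not pass. The call was lost for the window without d22 1, d22 3 or pbs 3 (highest limma adjusted p = 0.0668, without pbs 3) and for the region without d22 1 (limma adjusted p = 0.0523). Of all windows 2056, 2097 and 1741 were called in these fits, against 2869 with all libraries. Of all regions 1812 were called without d22 1, against 2502.

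The remaining 6 genes did not pass in fold enrichment. Stat3 had the highest values of the 10, at 77.1 to 94.5 in d22 and 68.0 to 100.3 in pbs, and 99.7% of tested regions had a lower mean than its start region. Its change was 0.03 ± 0.16 (log2, SE; limma adjusted p = 0.900), which relative to the median of all windows was 0.33 (limma adjusted p = 0.0484), where 10.1% of windows passed. Egfr (-0.29), Il6st (-0.32), Il6ra (-0.43) and Socs3 (-0.05) had negative changes, and Socs2 (0.24) a positive one. Fold enrichment at Socs3 varied widely within both titles, at 33.0 to 73.8 in d22 and 38.3 to 84.8 in pbs.

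**Figure D4:**
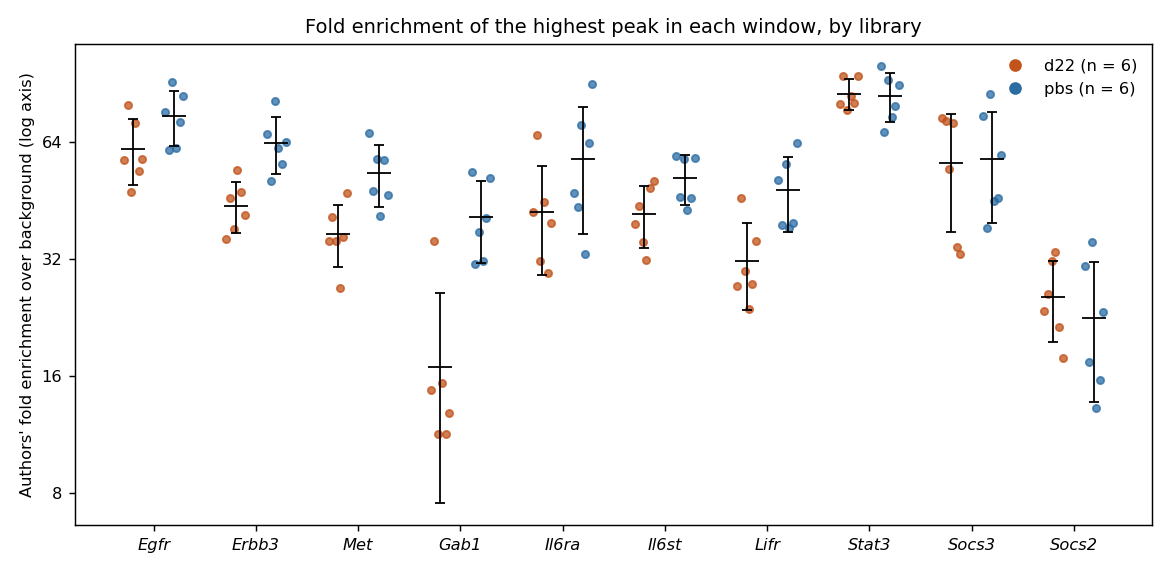
The authors' fold enrichment of the highest peak in each gene's window, on a log axis, for 6 d22 (left, orange) and 6 pbs libraries (right, blue); bars are the mean and SD. At Gab1, 5 d22 libraries are at 15.3 or less and all pbs libraries at 30.9 or more, with d22 2 at 35.5.

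The wider pathway was described with 7 lists of 90 genes by role, and 78 of these windows carried a peak in every library. Such a window can also take in the start of a neighbouring gene, which was not examined for these lists. By edgeR 0 of the 78 windows passed, against 0.797% of all windows, and 12 had an unadjusted p under 0.05, against 10.8%. DESeq2 called 0 of the 78, against 2.2% of all windows, with 14 at an unadjusted p under 0.05, against 11.5%. Changes were positive for 42 and negative for 36, with a median of 0.02 (log2). For Ereg, Il6, Osm, Cntf and Timp1 no library listed a peak in the window, so the ligands interleukin 6 and oncostatin M had none where each of their receptor chains named here had one in all 12 libraries.

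The windows of Hgf and Tgfa held few tags. Of 9 growth factor ligands 6 were tested, with 2 positive and 4 negative changes. Hgf, the ligand of Met, had 17.1 ± 6.45 CPM in d22 and 11.9 ± 2.16 CPM in pbs (SD, n = 6 each), a change of 0.52 ± 0.25 (edgeR adjusted p = 0.465). Tgfa, a ligand of Egfr, had 32.6 ± 8.14 CPM in d22 and 43.3 ± 5.84 CPM in pbs, a change of -0.40 ± 0.16 (edgeR adjusted p = 0.346). Of 8 cytokine ligands 3 were tested, with Il11 at 0.09 and Clcf1 at 0.05, and of 6 ligand activators and their inhibitors 3, with Spint2, an inhibitor of the protease that activates hepatocyte growth factor, at 0.06 and Hgfac, that protease, at -0.01.

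All 9 further receptors were tested, with 5 positive and 4 negative changes. Osmr, the oncostatin M chain that pairs with Il6st, had 53.1 ± 24.4 CPM in d22 and 37.1 ± 6.44 CPM in pbs (SD, n = 6 each), a change of 0.49 ± 0.22 (edgeR adjusted p = 0.444), with 101 CPM in d22 4 and a change of 0.22 without that library. Il11ra1, the interleukin 11 receptor, was at -0.26 ± 0.11 (edgeR adjusted p = 0.394).

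Of 25 transducers 15 had positive changes, with a list median of 0.10 against 0.00 over all windows. Stat5b, which carries growth hormone signals, had 254 ± 55.9 CPM in d22 and 197 ± 13.5 CPM in pbs (SD, n = 6 each), a change of 0.37 ± 0.12 (edgeR adjusted p = 0.220), and 0.25 without d22 4. Pik3r1, a regulatory subunit of PI3-kinase, had 324 ± 35.9 CPM in d22 and 272 ± 29.6 CPM in pbs, a change of 0.25 ± 0.09 (edgeR adjusted p = 0.293). Of 16 inhibitors, Cish, a relative of Socs2 that also acts on growth hormone signalling, was at 0.27 ± 0.11 (edgeR adjusted p = 0.343) and Errfi1, an inhibitor of Egfr, at -0.18 ± 0.09 (edgeR adjusted p = 0.475).

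Of 17 targets 16 were tested, with 7 positive and 9 negative changes. Lcn2, an acute phase gene that Stat3 drives, had 214 ± 18.4 CPM in d22 and 182 ± 14.6 CPM in pbs (SD, n = 6 each), a change of 0.23 ± 0.08 (edgeR adjusted p = 0.250). Ccnd1, the cyclin of cell cycle entry, had 74.7 ± 25.7 CPM in d22 and 110 ± 13.5 CPM in pbs, a change of -0.54 ± 0.19 (edgeR adjusted p = 0.290). In d22 the Ccnd1 values included 44.5 CPM in d22 4 and 39.7 CPM in d22 6, and the other 4 were at 84.5 CPM or more. Igfbp1, a secreted binding protein of insulin-like growth factors, named after its values were seen, had a change of 0.35 (edgeR adjusted p = 0.526) that became 0.49 (edgeR adjusted p = 0.0419) without d22 4. In that fit 125 of all windows were called, against 99 with all libraries.

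**Figure D5:**
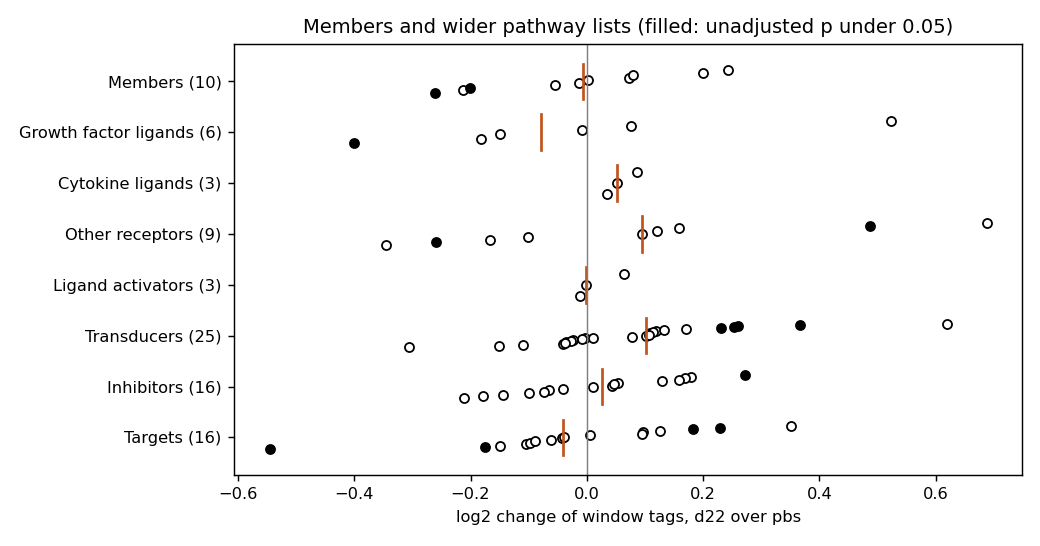
Log2 change of window tags, d22 over pbs, for the 10 genes (top row) and the tested genes of the 7 wider lists, with the number tested in brackets; filled points have an unadjusted p under 0.05 and orange bars are list medians. Each list except that of the 3 cytokine ligands has changes on both sides of 0.

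Markers of liver cell types were read from windows of the same kind, since whole liver mixes cells and fewer marked cells cannot be told apart from less of the mark per cell. With 10 kb on each side, a marker's window can hold peaks of a neighbouring gene, and these were not set apart. All 6 hepatocyte markers were called in all libraries, with a summed level of 1228 to 1568 CPM in d22 and 1443 to 1639 CPM in pbs. Within this list Alb (-0.59, edgeR adjusted p = 0.154) and Cps1 (-0.52, edgeR adjusted p = 0.108) had the lowest changes. Changes were negative for 5 of 6, as for 6108 of all 12419 windows. Of the other lists 1 of 6 macrophage, 5 of 6 endothelial, 0 of 5 stellate, 1 of 4 cholangiocyte, 1 of 4 neutrophil and 2 of 5 lymphocyte markers were called in all 12 libraries, and Marco, Cd5l, Des, Krt7, Krt19, Epcam, S100a8, S100a9, Ly6g, Cd3e and Cd3d had no peak in any. The summed level of the tested endothelial markers was 118 to 214 CPM in d22 (118 to 133 CPM without d22 4, the highest) and 87.8 to 154 CPM in pbs. Of the tested endothelial markers 3 had positive and 2 negative changes. The tested lymphocyte markers had 1 of each, with Nkg7 at -0.30 (edgeR adjusted p = 0.129). The 1 tested macrophage marker, Cd68, was at -0.13 (edgeR adjusted p = 0.581), and the tested cholangiocyte and neutrophil markers had positive changes. The part of cell makeup in the values above was not tested.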

How the data were processed

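H3K9ac ChIP-seq (antibody ab10812, per the labels) gave 1 peak table per library. The submitters' processing notes name CASAVA 1.8, Novoalign (version not given in the sources used here), MACS 1.4.2 and mm10. Per the file headers, MACS peak calls used a p-value cutoff of 1e-05 and 1 input file per title group, with 12526421 input tags for d22 and 10409931 for pbs. The tables hold raw tag counts per peak, the summit and called length, a score that is a scaled -log10 p-value, a ratio (fold enrichment over background) and a percent FDR, per the file headers. The inputs' own libraries were not analysed here. Depth was 6343891 (d22 4) to 13259411 (pbs 1) tags after filtering, of which 16.4% to 26.6% lay in peaks. Counting error is part of the edgeR and DESeq2 models. The limma fits of length, tags per kb and fold enrichment gave every library the same weight, whatever its depth. Tags were 48 bp long in 3 libraries, all pbs, and 49 bp in the others, which neither the labels nor the headers call a batch, and a comparison of the 49 bp libraries alone was added after seeing the data.

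Tags, called lengths and fold enrichments were taken over the peaks that overlap a window (protein-coding RefSeq span, GRCm38.p6, with 10 kb on each side) or a region (overlapping or touching peaks of the 12 lists merged). Tests ran over all windows or regions with a peak in all 12 libraries, since a missing peak is no count of 0. Counts were tested with edgeR 4.0.16 (quasi-likelihood, robust, TMM), log2 lengths, log2 tags per kb and log2 fold enrichment of the highest peak with limma 3.58.1 (trend, robust), in R 4.3.3, and occupancy of regions called in 2 to 10 libraries with Fisher's exact test (SciPy 1.17.1, two-sided). Adjustment was by Benjamini-Hochberg at 0.05 over the whole table. SEs of edgeR changes are the change divided by the root of F. DESeq2 1.42.0 was an alternative. The edgeR test was tried on simulated counts and the limma tests on simulated log values. DESeq2 and Fisher's exact test were not tried in this way. No libraries were duplicates (chi-square per degree of freedom 2.41 to 10.3 over 66 pairs).

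The genes, lists and tests were chosen with earlier results of these data known. All 10 genes are named, and of the wider lists any that passed and the 2 with the smallest p each.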

Additional observations from a re-analysis of the deposited data

Results flagged for a closer look

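In 80 groups of 6 libraries (10 genes, 4 measures and both titles), 5 had a library set apart from the others, where chance gives about 4. At Gab1 there were 3. Library d22 2 had a fold enrichment of 35.51, with the next highest d22 value at 15.33. Library d22 4 had a called length of 7465 bp, with the next at 4309 bp. Library pbs 6 had 87.11 CPM, with the next at 72.63 CPM. At Il6ra, d22 6 had 188.6 CPM, below the next lowest d22 library at 220.3 CPM. At Lifr, pbs 3 had 118.0 CPM, below the next lowest pbs library at 138.9 CPM. Without d22 2 the change of Gab1 in fold enrichment was -1.62.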

How the results depend on the processing

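In window tags, region tags, called length and tags per kb, 0 of the 10 genes passed under every alternative run. Over the whole table edgeR called 99 windows (40 higher, 59 lower), against 262 with library totals as the scaling (10 higher, 252 lower, median shift -0.20), 273 by DESeq2, 47 with the replicate block, 69 with peaks of a score of 100 or more and 25 to 125 on leaving out 1 library. Of regions it called 125, against 453 with library totals and 273 by DESeq2, and 64 to 143 on leaving out 1 library. For fold enrichment the main fit called 4 genes and 2869 of all 12419 windows. With the replicate block these became 2 genes (Gab1 and Lifr) and 1785 windows. With a length-weighted mean they were 2 genes (Gab1 and Erbb3) and 3246 windows, and after centring on the median 2 genes (Gab1 and Stat3) and 1258 windows. On leaving out 1 library 2 to 5 genes and 1741 to 4299 windows were called. Gab1 passed in each of these. Erbb3 was lost without d22 1, d22 3 or pbs 3 (2056, 2097 and 1741 windows called). Met was lost without d22 1, d22 3 or d22 4 (2056, 2097 and 3441 windows) and without pbs 1, pbs 3 or pbs 5 (1775, 1741 and 2805). Lifr was lost without pbs 6 (1929 windows). Il6ra passed without d22 2, d22 4 or pbs 4 (4299, 3441 and 3089 windows). Over the 49 bp libraries alone (6 d22 and 3 pbs, chosen after seeing the data) 18 windows and 39 regions were called for tags. For fold enrichment 1 of the 10 genes (Gab1) and 632 of all windows were called there. The Erbb3 gene-end region lost its call in fold enrichment with the replicate block, with a length-weighted mean, after centring, over the 49 bp libraries and without d22 1. Of all 12372 regions 1711, 2278, 1222, 466 and 1812 were called in these runs, against 2502 in the main fit. The wider lists had 0 to 1 gene called on leaving out 1 library (Igfbp1, without d22 4).

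Small changes turned sign. With library totals, window tags were -0.21 at Erbb3, -0.12 at Gab1, -0.12 at Stat3, -0.11 at Il11, -0.17 at Clcf1 and -0.15 at Spint2. Region tags were then -0.15 at the Egfr start, -0.0891 at Pa2g4, -0.0734 at a region inside Il6ra, -0.0163 at the Il6ra start, -0.15 at the Stat3 start and -0.0168 at Socs2. Erbb3 was at -0.00178 with the replicate block, -0.0276 with flanks of 2 kb, -0.00723 by summits and -0.000542 with 0 where no peak was listed. With scores of 100 or more Egfr was at 0.0618, Gab1 at -0.00283, Stat3 at -0.000621 and Hgfac at 0.00110. Without flanks Clcf1 was at -0.17, Spint2 at -0.13 and Hgfac at 0.0107, and with 2 kb Clcf1 was at -0.16, Spint2 at -0.13 and the called length of Il6ra at -0.00793. In tags per kb, Egfr was at 0.21, Met 0.0755, Il6st 0.21, Lifr 0.0916, Errfi1 0.23, Hgfac 0.12 and Tgfa 0.11, and the regions of Erbb3 0.0190, Gab1 0.0606, Il6st 0.14 and inner Stat3 0.11. With regions merged up to 500 bp apart, inner Stat3 was at 0.19 and the region downstream of Socs3 at -0.0585. In fold enrichment Stat3 was at -0.39 with a length-weighted mean, and Egfr at 0.0212 and Socs3 at 0.25 after centring. Over the 49 bp libraries window tags were at 0.11 at Egfr and 0.0801 at Hgfac, region tags at 0.0163 inside Lifr, called length at 0.11 for Egfr, 0.0988 for Erbb3, 0.26 for Stat3, 0.0791 for Socs3 and 0.0816 for Socs2, fold enrichment at 0.0141 for Socs3, and tags per kb at -0.00964 for Egfr, -0.0791 for Erbb3, -0.0913 for Met, -0.24 for Gab1, -0.0715 for Lifr and -0.12 for Stat3. The cause was not tested.

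On leaving out 1 library, window tags ran from -0.0943 to 0.0981 at Egfr, -0.0346 to 0.0366 at Erbb3, -0.0552 to 0.14 at Gab1, -0.0943 to 0.0153 at Socs3, -0.0653 to 0.16 at Clcf1, -0.0832 to 0.0695 at Hgfac and -0.000812 to 0.14 at Spint2. Called length ran from -0.11 to 0.0360 at Erbb3, -0.13 to 0.18 at Gab1, -0.0722 to 0.11 at Il6ra, -0.22 to 0.11 at Stat3, -0.0468 to 0.0778 at Socs3 and -0.0463 to 0.0789 at Socs2. Tags per kb ran from -0.0282 to 0.0819 at Erbb3, -0.0737 to 0.0806 at Gab1, -0.0122 to 0.15 at Met and -0.0947 to 0.00711 at Socs3. Fold enrichment ran from -0.16 to 0.0854 at Socs3 and -0.0315 to 0.0807 at Stat3, and region tags from -0.0875 to 0.00586 at Gab1 and -0.15 to 0.12 at the region inside Lifr.

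Same-numbered d22 and pbs libraries did not pair: the correlations of their deviations ran from -0.07 to 0.21, and only numbers 2 and 5 matched best with their own number, so the block is a hint at most. Library d22 4, the shallowest with 6343891 tags, listed the most peaks, 44585, while pbs 3, with 6385610 tags, listed 29087. Fold enrichment rests on 1 input per title group.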
